A study of Homo sapiens with 2 samples.

Results

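The genes described here encode the RB pocket proteins (RB1, RBL1 and RBL2), the E2F transcription factors that bind them (E2F1, E2F2, E2F3, E2F4 and E2F5) and the DP proteins with which E2F factors form dimers (TFDP1 and TFDP2). They were compared between Saos-2-2, a stable knockdown clone of Saos-2 that constitutively expresses shRNA against TSG101, and Saos-2, its human osteosarcoma parent. The members were the clones whose gene symbol is 1 of these 10 and whose spots the scanner software had not marked as unusable. Of the 10 genes, 7 were found by this rule, with 13 cDNA clones in 16 spots, among 34674 probes tested and 12831 genes with a tested probe. RB1, RBL2 and E2F2 were not analysed here. All 13 clones passed the filter on dim probes.

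A spotted cDNA array was used for each of 2 biological replicates, and on each of them Cy5 marked the knockdown line and Cy3 the parent, so that dye effects and differences between the lines cannot be told apart. Saos-2-2 had been isolated by puromycin resistance and GFP fluorescence and then cloned. The arrays held no sample of cells carrying a control shRNA or an empty vector, so that effects of cloning, of selection and of lower TSG101 cannot be told apart either. Saos-2 is known to lack functional RB, through a loss at the 3′ end of RB1. Both lines share this defect.

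RB and its relatives p107 (RBL1) and p130 (RBL2) hold E2F factors at promoters in quiescent and early G1 cells and bring repressors to them, until cyclin-dependent kinases phosphorylate the pocket proteins and release E2F. E2F1, E2F2 and E2F3 mainly activate genes of DNA synthesis, whereas E2F4 and E2F5 act mainly as repressors with p107 and p130. An E2F factor of these kinds binds DNA well only as a dimer with DP1 (TFDP1) or DP2 (TFDP2). In cells without functional RB, p107 and p130 remain as the pocket proteins that can bind E2F.

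Several of these genes carry E2F sites in their own promoters. RefSeq promoter windows (build GRCh38.p14, 250 bases before to 50 after a start site) were searched on both strands for the 8-letter E2F words TTTCGCGC, TTTCGCGG, TTTGGCGC and TTTGGCGG. A word was present in at least 1 window of 6 of the 9 members with a window, and of 2.67% of all 27305 genes with a window. The 6 were RBL1, E2F1, E2F2, E2F3, TFDP1 and TFDP2. Other windows of E2F3 and TFDP2 held none, nor did those of RB1, RBL2 and E2F4, and E2F5 had no window. For RB1 the window searched was chr13:48476200-48476499, and other start sites of RB1 were not searched. Its place among the members without a word rests on that window alone. The windows of E2F1, RBL1 and TFDP1 are shown because these are the members with 2 or more clones whose ratios lay furthest from 0, with the matched words in capitals. E2F1 (chr20:33686336-33686635, minus strand) has its words 37 and 20 bases before the start site, RBL1 (chr20:37095948-37096247, minus strand) 26 and 16 bases before it, and TFDP1 (chr13:113584503-113584802, plus strand) a single word on the reverse strand 120 bases before it. A match is a description of the letters, and binding was not measured.
E2F1: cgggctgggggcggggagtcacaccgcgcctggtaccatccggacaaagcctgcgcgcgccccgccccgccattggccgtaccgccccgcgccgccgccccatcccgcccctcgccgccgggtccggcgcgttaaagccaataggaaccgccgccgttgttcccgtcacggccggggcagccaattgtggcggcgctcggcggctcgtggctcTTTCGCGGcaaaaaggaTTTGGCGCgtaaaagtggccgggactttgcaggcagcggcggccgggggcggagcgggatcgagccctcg
RBL1: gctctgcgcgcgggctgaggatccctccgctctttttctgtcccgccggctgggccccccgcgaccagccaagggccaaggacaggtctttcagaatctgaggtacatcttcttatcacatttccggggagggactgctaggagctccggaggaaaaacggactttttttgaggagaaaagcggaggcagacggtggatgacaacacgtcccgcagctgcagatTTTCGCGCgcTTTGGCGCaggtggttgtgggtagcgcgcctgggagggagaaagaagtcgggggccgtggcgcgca
TFDP1: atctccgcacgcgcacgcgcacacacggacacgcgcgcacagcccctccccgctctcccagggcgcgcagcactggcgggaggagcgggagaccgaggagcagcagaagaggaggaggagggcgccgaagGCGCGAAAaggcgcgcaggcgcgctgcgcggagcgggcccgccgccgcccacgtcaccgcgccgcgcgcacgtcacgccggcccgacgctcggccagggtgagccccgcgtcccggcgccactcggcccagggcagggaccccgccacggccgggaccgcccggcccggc

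The spot intensities of the arrays were corrected for background, normalized within each array by loess and averaged over the spots of a clone, and log2 ratios of Saos-2-2 over Saos-2 were tested against 0 with limma. Over the whole series none of the 34674 probes (0%) passed a Benjamini-Hochberg adjusted p of 0.05, the smallest adjusted p being 0.106, while 4665 (13.5%) were nominally higher and 3365 (9.7%) nominally lower in Saos-2-2, where nominally stands for an unadjusted limma p under 0.05. With net ratios without normalization the numbers were 6481 higher and 1808 lower, with a median log2 ratio of 0.12 over all probes against -0.01 after loess. The targeted gene, TSG101, had a log2 ratio of -0.36 (-0.48 and -0.24 on arrays 1 and 2, adjusted p = 0.201). Median signal over background was 3.75 and 4.0 for Saos-2-2, against 3.83 and 3.74 for Saos-2. The arrays disagreed on osteoblast genes: of 8 measured markers none was above 0 on both arrays and 2 were below 0 on both, and COL1A2, a collagen chain, was at -3.23 on array 1 and 3.33 on array 2.

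**Figure D1:**
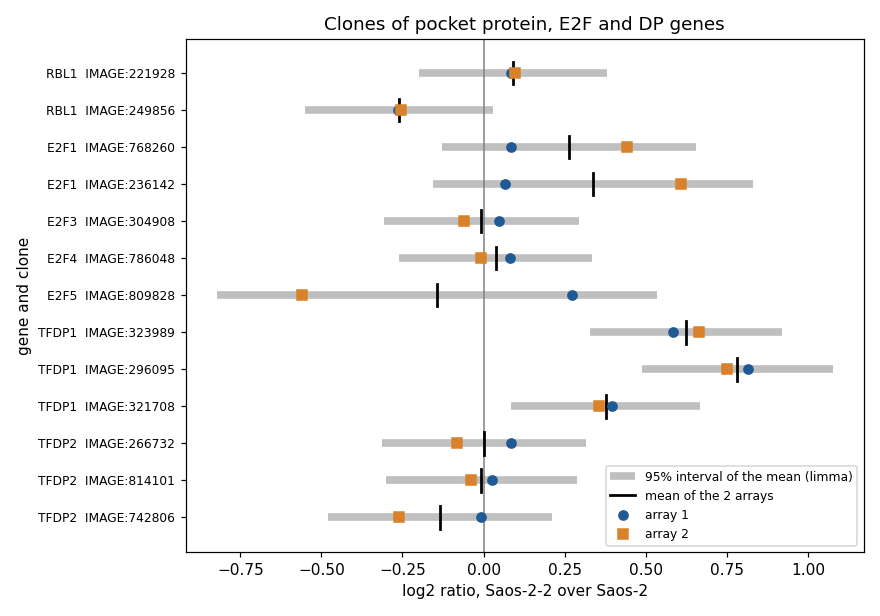
Log2 ratios of Saos-2-2 over Saos-2 for the 13 clones of the measured members, on array 1 (circles) and array 2 (squares), with the mean of the arrays (black line) and its 95% interval from limma (grey bar). The 3 TFDP1 clones lie above 0 on both arrays, and the E2F5 clone lies on opposite sides of 0.

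Among the members, TFDP1 was the gene whose clones all gave higher signals in Saos-2-2 with an unadjusted p under 0.05, by 1.30- to 1.72-fold, and none of the 13 clones passed the adjusted threshold. The 3 clones with an unadjusted p under 0.05 were all higher and all of TFDP1, to be read against 13.5% of all probes in that direction, and 0 were lower, against 9.7%. With plain background subtraction and with an intensity trend and robust prior, 2 TFDP1 clones were nominally higher and RBL1 IMAGE:249856 was nominally lower (limma, unadjusted p = 0.0492 and 0.0386). TFDP1 IMAGE:321708 was then not nominally higher (limma, unadjusted p = 0.0557 and 0.0616). Clones of 1 gene share their target and are not independent. The median log2 ratio of the 13 clones was 0.04, beside -0.01 for all probes. With 2 arrays an exact sign test could not go below a two-sided p of 0.5, and the limma p-values borrow the spread of all probes. Since RNA of whole cultures was compared, fewer cells expressing a gene and less RNA per cell cannot be told apart.

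TFDP1 encodes DP1, a common partner of the E2F factors. Its brightest clone, IMAGE:323989, had normalized intensities of 1959 and 1994 in Saos-2-2, against 1308 and 1259 in Saos-2, on arrays 1 and 2. On each array the Saos-2-2 value was the higher, and the arrays were not scaled to each other. The log2 ratio was 0.62 (0.58 and 0.66 on the arrays, standard error 0.10, n = 2 arrays), a fold of 1.54 with a 95% interval of 1.25 to 1.89 (limma, unadjusted p = 0.00475, adjusted p = 0.114).

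The second TFDP1 clone, IMAGE:296095, had 1694 and 1783 in Saos-2-2, against 962.5 and 1061 in Saos-2. Its Saos-2-2 value was also the higher on each array, and its log2 ratio of 0.78 (0.82 and 0.75 on the arrays) was the highest of the 13 clones. The fold was 1.72, with an interval of 1.40 to 2.11 (limma, unadjusted p = 0.00208, adjusted p = 0.106). The third clone, IMAGE:321708, had 919 and 1053 in Saos-2-2, against 699 and 822 in Saos-2. It was again higher on both arrays, by the smallest amount of the 3, at a log2 ratio of 0.38 (0.40 and 0.36) and a fold of 1.30 (interval 1.06 to 1.59, limma, unadjusted p = 0.0237, adjusted p = 0.164). Its well carries a code of 2 in the column on failed wells, where 0 is the usual value, and its meaning is not stated in the labels, the files or the methods.

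The TFDP1 clones thus agreed in direction and differed in size, with a standard deviation of 0.20 between the 3 log2 ratios. Averaged over the clones, TFDP1 was at 0.60 on array 1 and 0.59 on array 2 (mean 0.59, standard error 0.10, adjusted p = 0.175 from limma over genes). Of 2084 genes with 3 or more tested probes, 27 (1.30%) had all probes above 0 on both arrays with an unadjusted p under 0.05, TFDP1 included. This count was chosen after the values of TFDP1 had been seen.

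TFDP2, which encodes DP2 and can take the place of DP1 in the dimer, had 3 clones as well. IMAGE:266732, the brightest, had normalized intensities of 659 and 788 in Saos-2-2, against 622 and 834 in Saos-2, and a log2 ratio of 0.00 (0.08 and -0.08, 95% interval -0.31 to 0.32). IMAGE:814101 had 296.5 and 285 in Saos-2-2, against 291 and 293 in Saos-2, and a log2 ratio of -0.01 (0.03 and -0.04). For both clones the arrays lay on opposite sides of 0. IMAGE:742806 had 307 and 250.1 in Saos-2-2, against 309 and 299.7 in Saos-2, with a log2 ratio of -0.13 (-0.01 and -0.26, adjusted p = 0.535 from limma). Unadjusted p-values of the TFDP2 clones lay between 0.333 and 0.991. The mean over the 3 clones was -0.05, where that of TFDP1 was 0.59, and the difference between the DP genes was not tested. The clone IMAGE:266732 also carries a code of 2 in the column on failed wells.

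**Figure D2:**
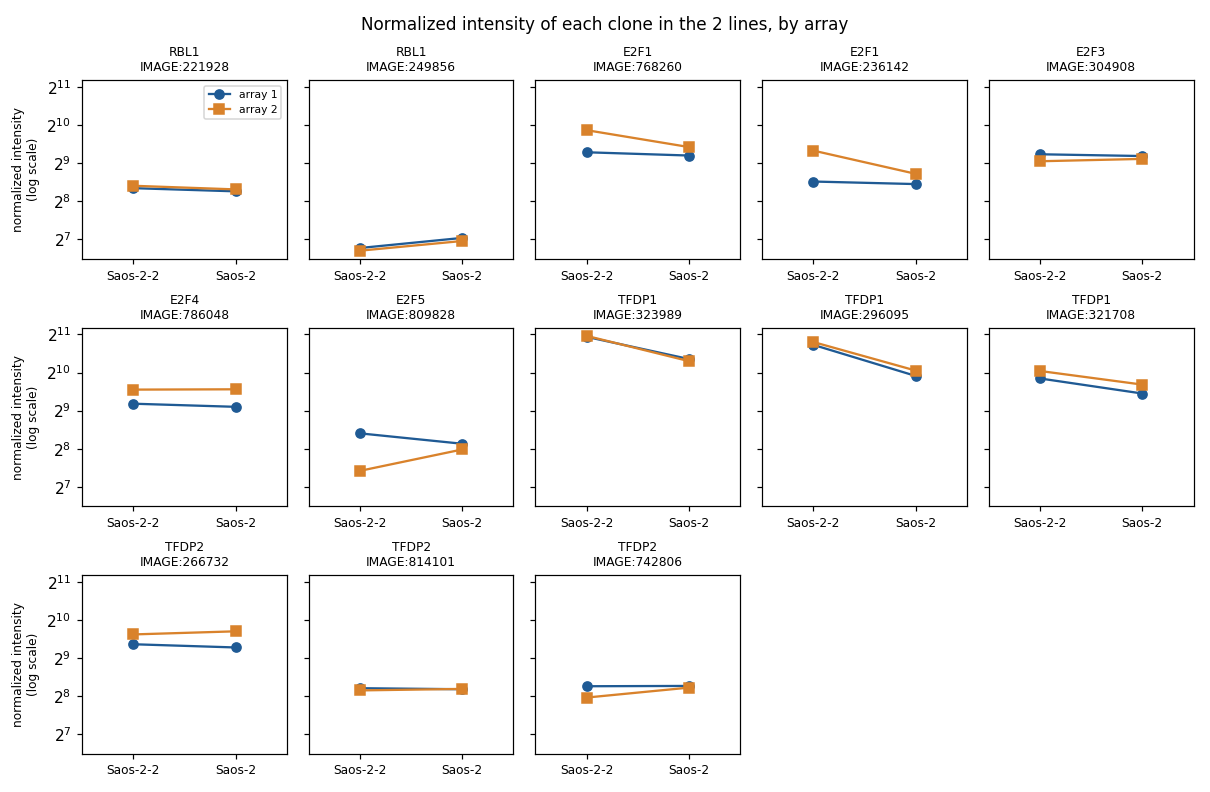
Normalized intensity on a log scale of each of the 13 clones in Saos-2-2 (left point) and Saos-2 (right point), joined within array 1 (circles) and array 2 (squares). The lines of the 3 TFDP1 clones run downwards to Saos-2 on both arrays, and those of E2F5 run in opposite directions. Levels may be compared between Saos-2-2 and Saos-2 within an array, and not between clones or arrays.

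Of the activating factors, E2F1 was above 0 after loess by both of its clones and on both arrays, by amounts that differed between the arrays. IMAGE:768260 had 624 and 932.5 in Saos-2-2, against 588 and 686 in Saos-2, with log2 ratios of 0.09 on array 1 and 0.44 on array 2. IMAGE:236142 had 367 and 643 in Saos-2-2, against 350 and 422 in Saos-2, with log2 ratios of 0.07 and 0.61. Before loess, the scanner software's ratios on array 1 were below 0, at -0.083 and -0.053, and with these ratios the mean of IMAGE:768260 was 0.081. In both clones the lower Saos-2-2 value, on array 1, lay below the higher Saos-2 value, on array 2. The arrays were not scaled to each other, and within each array Saos-2-2 was the higher after loess. The mean log2 ratios were 0.26 (95% interval -0.13 to 0.66, adjusted p = 0.327) and 0.34 (-0.16 to 0.83, adjusted p = 0.322) in limma. The clones differed from each other by less than the arrays did, since array 2 exceeded array 1 by 0.36 and 0.54.

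E2F3, the other measured activator, had 1 clone, IMAGE:304908, with 602 and 529.9 in Saos-2-2, against 583 and 553 in Saos-2. Its log2 ratio was -0.01 (0.05 and -0.06), with a 95% interval of -0.31 to 0.29, and the arrays lay on opposite sides of 0. In terms of fold the interval ran between 0.808 and 1.23.

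The repressor partners of p107 and p130 gave no ratio with an unadjusted p under 0.05. E2F4, an abundant factor of quiescent cells, had 581 and 750.4 in Saos-2-2, against 549 and 755 in Saos-2 (IMAGE:786048, log2 ratio 0.04, with 0.08 and -0.01 on the arrays, 95% interval -0.26 to 0.33). Its 2 spots lay in different sectors and gave log2 ratios of 0.06 and 0.10 on array 1 and -0.04 and 0.02 on array 2, a spread between spots smaller than that between arrays. E2F5 had 339 and 171 in Saos-2-2, against 280.5 and 253 in Saos-2 (IMAGE:809828). This clone was higher in Saos-2-2 on array 1, at 0.27, and lower on array 2, at -0.56. Its mean of -0.14 had the widest interval of the 13, -0.82 to 0.53, and an adjusted p of 0.736 in limma.

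RBL1, the pocket protein p107 and itself a known E2F target, was read by 2 clones that disagreed. IMAGE:221928, the brighter, had 325 and 339 in Saos-2-2, against 307 and 318 in Saos-2, a log2 ratio of 0.09 (0.08 and 0.10, 95% interval -0.20 to 0.38, unadjusted p = 0.432 in limma). IMAGE:249856 had 109.5 and 104 in Saos-2-2, against 132 and 124 in Saos-2, a log2 ratio of -0.26 (-0.27 and -0.25, interval -0.55 to 0.03, unadjusted p = 0.0672, adjusted p = 0.244). On both arrays the first clone was higher and the other lower in Saos-2-2. The 3 spots of IMAGE:249856 gave log2 ratios of -0.22, -0.31 and -0.26 on array 1 and -0.23, -0.24 and -0.30 on array 2. These spots were dim, with net intensities of 63 to 74 in Saos-2-2, against 62 to 89 in Saos-2, and the normalized values include the offset of 50. The mean over the clones of RBL1 was -0.09 (adjusted p = 0.668), and the difference between its clones, a standard deviation of 0.25, exceeded the difference between arrays within each, 0.01 for both.

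Across the 13 clones the arrays differed by a median of 0.09 on the log2 scale, with a range of 0.01 (RBL1) to 0.83 (E2F5), where the median over all probes was 0.18 and the quartiles were 0.08 and 0.35. On both arrays 8 of the 13 clones had the same sign, namely all clones of RBL1, E2F1 and TFDP1 and 1 of TFDP2, where 70.7% of all probes did. Signal over background of the members' spots ranged between 2.31 and 36.2, and at least 83% of the pixels of each spot exceeded the local background by more than 2 standard deviations.

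**Figure D3:**
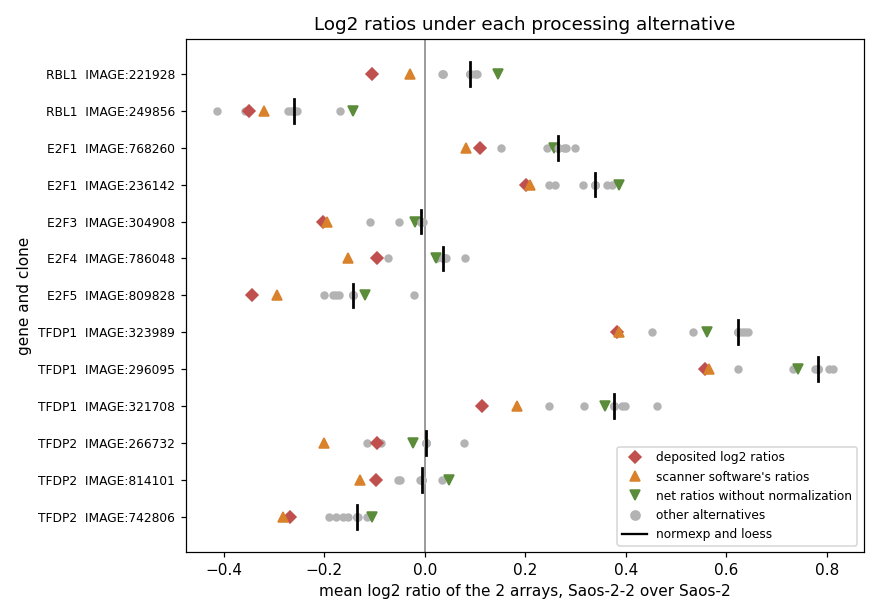
Mean log2 ratio of each of the 13 clones under every processing alternative, as grey circles or, for the deposited ratios, the scanner software's ratios and net ratios, as coloured symbols, with the value after normexp and loess as a black line. All values of TFDP1 lie above 0, and those of TFDP2 IMAGE:266732, E2F4 and RBL1 IMAGE:221928 fall on both sides of it.

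Other genes of the pathway were read by the brightest clone of each gene, in 8 lists of 135 genes, of which 119 were measured. No gene of the lists passed the adjusted threshold of 0.05 in limma. Nominally, 10 genes lay higher and 13 lower in Saos-2-2, where 11.8% of all genes were higher and 11.5% lower. The median of the 119 was -0.06, beside -0.02 for all genes.

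Upstream of the pocket proteins, 1 of 10 measured G1 cyclins and kinases was nominally higher and 2 nominally lower, with a median of 0.05. CDK6, which with D cyclins begins the phosphorylation of pocket proteins, had the lowest ratio of this list, -1.56 (-1.64 and -1.49, unadjusted p = 0.000202, adjusted p = 0.106 in limma). CDK2, the partner of cyclins E and A, was at -0.50 (-0.46 and -0.54). CCND3 and CCND1, which encode D cyclins, were at 0.35 (0.02 and 0.67) and 0.34 (0.35 and 0.32). Of 6 measured CDK inhibitors, 3 were nominally higher and 0 lower, with a median of 0.41. CDKN1A, the gene of p21 that the study followed up, was at 2.00 (1.51 and 2.48, adjusted p = 0.107) and CDKN1B, the gene of p27, at 0.66 (0.80 and 0.53), whereas CDKN2D and CDKN2C, inhibitors of CDK4 and CDK6, were at 0.25 (-0.15 and 0.66) and -0.02 (0.31 and -0.36).

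Among 9 measured further E2F, MuvB and MYB genes, 1 was nominally higher and 2 nominally lower, with a median of 0.01. MYBL2, which encodes the B-MYB protein that joins the MuvB complex after p107 and p130 leave it, was at -0.97 (-1.31 and -0.64, unadjusted p = 0.00971, adjusted p = 0.132 in limma), and its relative MYBL1 at -0.77 (-0.86 and -0.68). The other 2 clones of MYBL1 gave -0.54 and -0.22, below 0 on both arrays. E2F8, an atypical repressor that binds DNA without a DP partner, was at 0.41 (0.43 and 0.38), and RBBP4, a histone-binding subunit of MuvB, at 0.26 (0.46 and 0.06).

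Of 18 chromatin partners of pocket proteins, 0 were nominally higher and 2 lower, with a median of 0.05. SMARCA2, an ATPase of the SWI/SNF remodeller, was nominally lower, at -0.64 (-0.77 and -0.52), as was PHB1, a prohibitin named after its value was seen, at -0.41 (-0.41 and -0.42). RBBP7, a histone-binding protein, was at -0.49 (-0.17 and -0.82, unadjusted p = 0.0680 in limma). SUV39H1, a histone H3 methyltransferase, and CTBP1, a corepressor, had the highest means, 0.72 and 0.50, and these rested on 1 array each (0.17 and 1.28, 0.97 and 0.03). None of 8 phosphatase and turnover genes had an unadjusted p under 0.05, and 7 lay below 0, 4 of them on both arrays. Their median was -0.13, beside -0.02 for all genes, whose share below 0 was not counted. PPP1CC and PPP1CB, catalytic subunits of the phosphatase that acts on RB, were at -0.39 (-0.08 and -0.71) and -0.23 (-0.28 and -0.19), PPP1CA at -0.10 (0.05 and -0.25), and SKP2, a ubiquitin ligase subunit that targets p27, at 0.13 (0.26 and -0.01).

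**Figure D4:**
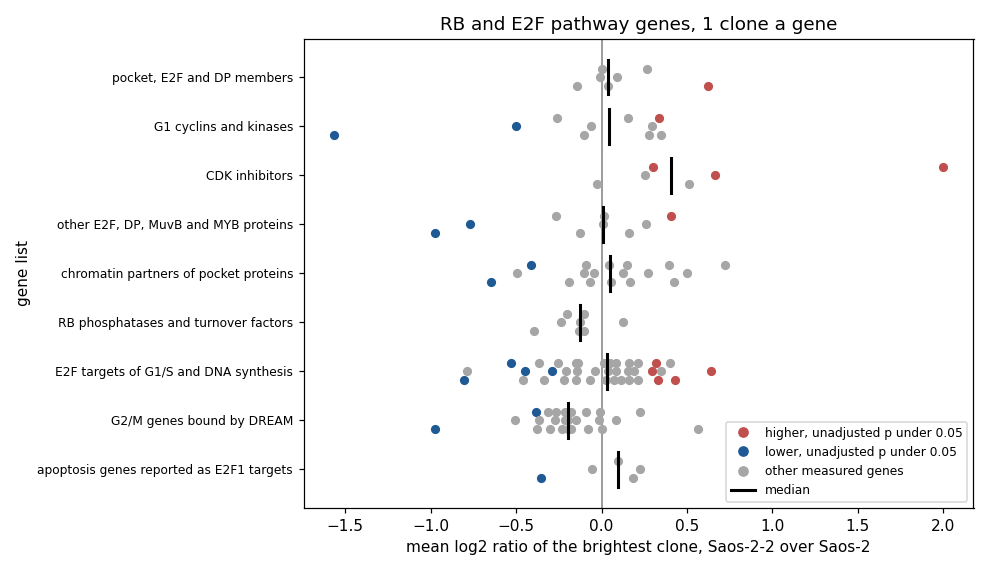
Mean log2 ratio of Saos-2-2 over Saos-2 for the brightest clone of each measured gene (points), for the 7 measured members and the 8 pathway lists, with the median of each as a black line. Red and blue points had an unadjusted p under 0.05. The median of the CDK inhibitors lies at 0.41 and that of the G2/M genes at -0.20, and the points of the E2F target genes lie on both sides of 0.

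Downstream, the known E2F targets of G1/S and DNA synthesis did not share a direction. Of 38 measured, 5 were nominally higher and 4 nominally lower, with 21 above and 17 below 0 and a median of 0.03. POLE2, a subunit of DNA polymerase epsilon, was at 0.64 (0.54 and 0.74) and PCNA, the sliding clamp of replication, at 0.43 (0.45 and 0.41). DBF4, the activator of the CDC7 kinase at origins, was at -0.80 (-0.39 and -1.22) and TK1, thymidine kinase, at -0.79 (-0.28 and -1.30). In promoter windows, 14 of 35 genes of this list with a window (40%) held an E2F word, beside 2.67% of all genes. The genes were listed because they are known E2F targets, so that this share is not a result of the arrays.

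Of 25 measured G2/M genes bound by the DREAM complex, in which p107 or p130 with E2F4 and DP1 represses cell cycle genes, 0 were nominally higher and 2 lower, with 21 below 0 and a median of -0.20. The medians of the arrays differed, at -0.02 on array 1 and -0.33 on array 2, and 14 of the genes were below 0 on both. For all genes the median of the mean log2 ratio was -0.02. Their shares below 0, and below 0 on both arrays, were not counted. PLK1, a mitotic kinase, was at -0.97 (-0.43 and -1.52, unadjusted p = 0.0347 in limma), and CENPA, a centromeric histone named after its value was seen, was at -0.38 (-0.53 and -0.24, unadjusted p = 0.0419). TTK, a spindle checkpoint kinase, was at -0.50 (-0.05 and -0.95, unadjusted p = 0.123 in limma). NEK2 and NUSAP1, a centrosomal kinase and a spindle protein, were at 0.57 (1.00 and 0.13) and 0.23 (0.54 and -0.08). Among measured apoptosis genes reported as E2F1 targets, PMAIP1, BBC3 and BCL2L11, which encode BH3-only proteins, were at -0.06, 0.18 and 0.23, each with an unadjusted p above 0.05 in limma.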

How the data were processed

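Two-colour arrays of 2 biological replicates were analysed. The deposited scanner tables hold, for each channel, linear intensity without normalization, as foreground mean, foreground median and local background median. The deposited log2 ratios had been scaled by the scanner software with 1 factor per array (1.03 and 1.24). Further deposited columns are the percent of pixels above background, the ratio of the channels pixel by pixel, and a quality mark, a score of the scanner software that was deposited with each spot. The deposited series table holds the log2 ratio of medians. Agilent Feature Extraction is named in the submitters' processing notes, its version being not given in the sources used here.

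Using limma 3.58.1 (R 4.3.3), the mean foreground was background-corrected (normexp, offset 50), normalized by global loess within arrays with 226 control spots and spots marked as unusable (3749 and 4381) left out, and averaged per clone. A probe entered the test where, on both arrays, 1 channel or both reached 1.5 times the local background. Mean log2 ratios were set against 0 with eBayes variances (2.75 prior degrees of freedom) and Benjamini-Hochberg adjustment over 34674 probes at 0.05. The normalized intensity of a channel was taken back from the normalized ratio and mean intensity and includes the offset. Gene identifiers on the arrays were updated to current symbols to name clones, and 21520 probes were assigned to 1 gene. The brightest clone stood for a gene in the lists. All members with all clones, TSG101, CDKN1A, CDK6, CCND1, and the 2 highest and 2 lowest genes of each pathway list were named by rule, except that the values of some genes that the rule takes are not given. Cell type markers served as checks of the line, and PHB1, CENPA and MYBL1's other clones were named after their values were seen. Members, lists and tests were chosen with earlier results of these data known. The alternatives changed the background correction, foreground, normalization, filters, variance model, values used and the choice of clone, and leaving out wells with a code on failed wells was added after the data were seen. Ratios with known answers, simulated with the prior fitted here, were used to check the fitting code. Being drawn from the model itself, they cannot test whether the model suits these arrays. Having only 2 arrays limits precision. The p-values rest in part on the spread between samples labelled as biological replicates, whose cultures are not described further. They rest as well on the spread pooled over all probes (prior variance 0.0282), which sets a floor to the standard error where the arrays lie close together. Figures were made in Python 3.11.15 (matplotlib 3.10.9).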

Additional observations from a re-analysis of the deposited data

How the results depend on the processing

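No member passed an adjusted p of 0.05 in limma under any alternative that gives a test. TFDP1 stayed above 0 under every alternative and on each array alone, with log2 ratios of 0.56 to 0.81 for IMAGE:296095 (adjusted p 0.0697 to 0.157, unadjusted p under 0.05 in all 14 settings), 0.38 to 0.64 for IMAGE:323989 (adjusted p 0.0935 to 0.224, unadjusted p under 0.05 in 12 of 14) and 0.11 to 0.46 for IMAGE:321708 (6 of 13). Members with an unadjusted p under 0.05 numbered 1 clone, in place of 3, with the deposited log2 ratios and with the scanner software's ratios. These ratios have medians of -0.07 and -0.06 over all probes. No gene of the pathway lists was called after normexp and loess, but 4 were with the deposited ratios (CDK6, CDKN1A, MYBL1 and MYBL2), 3 with the scanner software's (CDK6, CDKN1A and MYBL1) and 4 with net ratios without normalization (CDK6, CDKN1A, MYBL2 and PLK1), where 2148 (1585 higher, 563 lower), 1703 (1323 and 380) and 3545 (3019 and 526) of all probes were called in place of 0. These settings change several steps together, and the cause was not tested.

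The direction of ratios near 0 was not stable. TFDP2 IMAGE:266732 was at -0.11 with median centring, -0.0870 with print-tip loess, -0.10 with the deposited ratios, -0.20 with the scanner software's and -0.0237 with net ratios. E2F4 was at -0.0731, -0.0963 and -0.154 with median centring, deposited and scanner ratios, and RBL1 IMAGE:221928 at -0.10 and -0.03 with the last 2. TFDP2 IMAGE:814101 was at 0.0342 with median foregrounds and 0.0479 with net ratios. On single arrays the value ranged between -0.0817 and 0.0844 for TFDP2 IMAGE:266732, -0.0402 and 0.0271 for IMAGE:814101, -0.0618 and 0.0465 for E2F3, -0.00818 and 0.0821 for E2F4, and -0.56 and 0.27 for E2F5. The means of RBL1 IMAGE:249856 were below 0 and those of both E2F1 clones above 0 under all alternatives run. Each ratio already pairs the lines within an array. A fit with the replicate number as a block could not be made because the ratios form 1 group.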

Other observations

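TFDP1 lies near the end of the long arm of chromosome 13, and the genes beside it were read after its values were seen. Of 15 measured neighbours, up to 10 on each side in the RefSeq order, the median log2 ratio was 0.09, with a lowest of -0.39 (PROZ) and a highest of 0.62 (F10, which encodes coagulation factor X). F10 lay just below the brightest clone of TFDP1 (0.623 against 0.620 for F10) and above the mean over the TFDP1 clones (0.59). Of the neighbours, 1 was nominally higher and 1 nominally lower (limma, unadjusted p under 0.05). The medians of 20 neighbours each were -0.12 for RBL1 and -0.07 for E2F1, both on chromosome 20, 0.01 for E2F3, 0.05 for E2F4, -0.05 for E2F5 and 0.02 for TFDP2.

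Markers of other cell types gave no shared shift. The median log2 ratio was -0.03 for 5 epithelial markers, 0.05 for 4 leukocyte markers and -0.22 for 3 endothelial markers, and 1 leukocyte marker was nominally higher and 1 nominally lower. The osteoblast markers had a median of -1.69 on array 1 and 0.54 on array 2. SPARC, a secreted matrix protein of bone, was at -2.22 and 2.27, and SPP1, the gene of osteopontin, at -0.91 and 4.20. COL1A1 was at -2.91 and 1.17. RUNX2, the transcription factor that defines the lineage, was at 0.03 and -0.08, and BGLAP at 0.16 and -0.41. IBSP, at -1.67 and -0.51, and ALPL, at -1.71 and -0.13, were below 0 on both arrays. Of the osteoblast markers, 1 was nominally lower, IBSP (limma, unadjusted p = 0.0284), and 0 were nominally higher. The part of these markers in the ratios of the E2F genes was not tested.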
